A study of Mus musculus with 20 samples.

Results

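Macrophages that were loaded with the Ca2+ chelator BAPTA-AM and then given zymosan, a particle made of yeast cell wall, still raised genes of every inflammatory group examined, from NF-kB inhibitors to interferon-stimulated genes, while genes such as *Il1a*, *Il1b* and *Rcan1* stopped well short of the level in cells given zymosan alone. The response described here was read from 8 of the 20 RNA-seq libraries of the series, 4 of WT bone marrow-derived macrophages (BMDMs) given BAPTA-AM and zymosan and 4 of untreated WT BMDMs, chosen by their labels alone. A further group of 5 libraries, WT BMDMs given zymosan without BAPTA-AM, shows the ordinary response beside it, so 9 libraries entered the test of loaded against unloaded cells. The study asked how Ca2+ taken up by mitochondria shapes inflammation, and its *Mcu*-/- libraries entered only an alternative fit.

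All 3 groups were WT mouse BMDMs, grown from the bone marrow of mice aged 15 to 25 weeks in medium conditioned by L929 cells, a source of the growth factor that drives macrophage differentiation. Untreated cells received neither agent. Unloaded cells received zymosan for 3 h at 2 particles per cell. Loaded cells received the same zymosan after loading with 10 µM BAPTA-AM, an ester that crosses the membrane and is cut inside the cell to free the chelator. Both doses are taken from the paper's qPCR methods, since its RNA-seq methods give none. The series holds no BAPTA-AM group without zymosan among the samples analysed here, so an effect of loading on resting cells cannot be told apart from an effect on the zymosan response. The carrier of BAPTA-AM is not given in the sources used here. The labels call the libraries biological replicates and do not say which animal or culture each came from, so p-values measure the spread between these samples.

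As background, zymosan is seen by Toll-like receptor 2 with its partners TLR1 and TLR6, through the adaptor MyD88, and by C-type lectin receptors that signal through the kinase Syk and the adaptor CARD9. Both routes release NF-kB from its inhibitors and switch on AP-1, and a later wave follows when secreted interferon-β acts back on the cells through its receptor. Cytosolic Ca2+ adds a further branch, in which calmodulin activates the phosphatase calcineurin and this sends NFAT factors to the nucleus, where *Rcan1*, a calcineurin inhibitor, is a classical target.

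The libraries were deep, and replicates correlated closely. Counts summed to 14.4 to 19.3 M per untreated library, 17.4 to 21.7 M per loaded library and 20.3 to 22.4 M per unloaded library, and log2 values of replicates correlated at r of 0.997 to 0.998 across genes in each group. Genes of the mitochondrial genome held 1.16 to 1.3% of counts in loaded and 1.28 to 1.55% in untreated libraries. Untreated replicates 1 and 4 resembled each other, as did 2 and 3. A chi-square of counts between libraries, per gene, was 1.95 and 1.6 within these pairs and 3.43 to 4.34 across them. It was 2.29 to 3.43 between loaded and 1.92 to 6.24 between unloaded libraries. Mitochondrial shares were 1.55% in untreated replicates 1 and 4, and 1.31 and 1.28% in 2 and 3. The cause was not tested. Of 12 macrophage markers, 12 had a mean of 1 CPM (counts per 1000000 counts) or more, and they summed to 15400 to 15800 CPM in untreated, 16200 to 16600 in loaded and 18200 to 18600 in unloaded libraries. Markers of other cells were near 0 beside these. Summed levels in untreated and loaded libraries were 2.73 to 4.48 and 2.88 to 3.51 CPM for neutrophils, 1.01 to 1.39 and 5.73 to 7.23 for dendritic cells, 52.7 to 54.8 and 31.3 to 33.9 for B cells, 0 to 0.584 and 0.321 to 1.25 for T or NK cells, 0.0838 to 0.375 and 0.125 to 0.471 for erythroid cells, 0.21 to 0.551 and 0.436 to 0.803 for mast cells or basophils, and 2.7 to 4.25 and 4.43 to 5.41 for fibroblasts. A mean of 1 CPM or more was reached by 1 of 7 dendritic cell and 1 of 5 B cell markers, so these sums rest on few genes. In bulk libraries, fewer cells with an RNA and less of it per cell cannot be told apart.

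Promoter windows of 6 genes are printed with matches to 3 kinds of control element. *Rsad2* and *Ifit1* are shown as interferon-stimulated genes with a small gap to unloaded cells, *Cxcl10* and *Nfkbia* as targets of NF-kB, and *Il1a* and *Rcan1* as genes with a large gap. Each is the 250 bases before a RefSeq transcript start in GRCm38.p6 (mm10), written in the direction of transcription. Capitals mark matches on either strand to the interferon-stimulated response element (ISRE, GAAANNGAAA), the kappaB element (GGGANNNNCC) and the AP-1 element (TGANTCA), which did not overlap one another in these windows.
*Rsad2* (chr12:26456453-26456702, minus strand): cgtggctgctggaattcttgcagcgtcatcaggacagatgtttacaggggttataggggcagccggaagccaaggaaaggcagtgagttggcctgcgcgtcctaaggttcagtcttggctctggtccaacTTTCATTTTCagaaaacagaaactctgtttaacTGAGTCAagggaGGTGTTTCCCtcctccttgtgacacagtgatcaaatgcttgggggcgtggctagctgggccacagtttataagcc
*Ifit1* (chr19:34640639-34640888, plus strand): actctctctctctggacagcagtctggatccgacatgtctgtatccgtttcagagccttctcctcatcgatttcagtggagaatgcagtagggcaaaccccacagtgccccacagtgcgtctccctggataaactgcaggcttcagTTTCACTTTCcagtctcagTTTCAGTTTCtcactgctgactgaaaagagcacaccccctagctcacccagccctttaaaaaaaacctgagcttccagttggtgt
*Cxcl10* (chr5:92348890-92349139, minus strand): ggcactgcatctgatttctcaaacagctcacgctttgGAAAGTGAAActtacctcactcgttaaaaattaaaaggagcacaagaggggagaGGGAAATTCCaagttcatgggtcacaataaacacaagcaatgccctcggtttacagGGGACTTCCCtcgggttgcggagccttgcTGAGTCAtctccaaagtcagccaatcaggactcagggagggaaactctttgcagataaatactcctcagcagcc
*Nfkbia* (chr12:55492648-55492897, minus strand): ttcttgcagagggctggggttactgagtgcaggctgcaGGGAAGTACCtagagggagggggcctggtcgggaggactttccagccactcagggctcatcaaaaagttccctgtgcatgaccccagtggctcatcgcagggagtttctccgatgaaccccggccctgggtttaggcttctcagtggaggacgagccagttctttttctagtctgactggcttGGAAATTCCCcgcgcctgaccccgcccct
*Il1a* (chr2:129309973-129310222, minus strand): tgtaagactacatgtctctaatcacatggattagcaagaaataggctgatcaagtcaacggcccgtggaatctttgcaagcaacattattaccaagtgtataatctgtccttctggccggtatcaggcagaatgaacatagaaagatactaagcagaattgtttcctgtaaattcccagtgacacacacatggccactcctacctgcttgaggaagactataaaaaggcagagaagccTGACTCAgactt
*Rcan1*, downstream transcript start (chr16:92400079-92400328, minus strand): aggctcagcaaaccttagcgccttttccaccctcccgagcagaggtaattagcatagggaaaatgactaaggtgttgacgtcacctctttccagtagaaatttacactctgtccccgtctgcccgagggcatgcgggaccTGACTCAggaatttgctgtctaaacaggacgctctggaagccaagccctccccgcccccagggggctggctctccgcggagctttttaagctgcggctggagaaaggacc

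Counted from the transcript start, the window of *Rsad2* held 1 ISRE match beginning at −120, 1 AP-1 match at −87 and 1 kappaB match at −75. *Ifit1* held 2 ISRE matches, at −104 and −85, and none of the others. *Cxcl10* held all 3 kinds, with ISRE at −213, kappaB at −159 and −103 and AP-1 at −74, whereas *Nfkbia* held kappaB matches at −212 and −29. *Il1a* and the downstream start of *Rcan1* each held 1 AP-1 match, at −12 and −110, and the window of the other *Rcan1* start held none of the 3. Over all 32851 RefSeq windows of 300 bases, which run 50 bases past the start, 3.44% held an ISRE match, 20.7% a kappaB match and 7.81% an AP-1 match. Matches are descriptions of letters, not of bound factors.

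Most genes differed between loaded and untreated cells. Of 11171 genes tested, 4206 (37.7%) were higher and 4440 (39.7%) lower than in untreated cells by edgeR's quasi-likelihood test at an adjusted p under 0.05, 8646 (77.4%) in all, and 8019 (71.8%) showed no overlap between the 4 loaded and the 4 untreated libraries. A change of at least 2-fold was called for 1230 genes higher (11%) and 1407 lower (12.6%). In unloaded cells the same test called 4260 higher (37.9%) and 4688 lower (41.7%) of 11250, 79.5% in all, and 71.4% showed no overlap. Both responses share the untreated libraries, so they are set side by side here and the difference between them was tested directly.

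The direct test, loaded against unloaded cells, called 1741 genes higher (15.9%) and 1788 lower (16.3%) of 10973, 32.2% in all, and 25.6% showed no overlap, but 21 (0.191%) were higher and 65 (0.592%) lower by 2-fold or more. Library sizes were scaled by TMM, which assumes that most genes do not change. Without it, by total counts, the median over all genes moved from −0.02 to −0.46 (log2), a shift of −0.43, and the calls in loaded cells split into 1999 higher and 7961 lower, with 1976 and 8354 in unloaded cells and 2868 and 1217 in the direct test. Changes against untreated cells below that size therefore keep their direction only relative to the bulk of genes. The shares over all genes given here are the background for the counts of each list below. All rises and falls named below passed edgeR's test at an adjusted p under 0.05, fold changes are on the log2 scale with their standard error (SE), and levels are CPM scaled by TMM over the 13 WT libraries, which compare a gene across libraries and not genes with each other.

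Genes raised strongly in loaded cells were described beside their unloaded level. In loaded cells 394 genes (3.53% of those tested) rose at least 4-fold to a mean of 10 CPM or more. For 152 of these (38.6%) the 95% interval of the difference between loaded and unloaded cells lay within 0.25 log2 either way, which places their loaded level close to the unloaded one. Of the 394, 243 were called lower than in unloaded cells, 8 of them by 2-fold or more and 235 by less, 52 were called higher and 99 were not called. The median difference was −0.165 over the 394 and 0.007 over all genes tested. The loaded libraries both chose these genes and entered the difference, and genes that rose less in loaded cells, such as *Il1a* and *Rcan1*, are not in the list, so these numbers describe the list and do not measure the share of the zymosan response that was left. Conversely, of 161 genes that fell at least 4-fold, 24 were called lower and 13 higher than in unloaded cells and 122 were not called, with a median difference of −0.036.

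**Figure D1:**
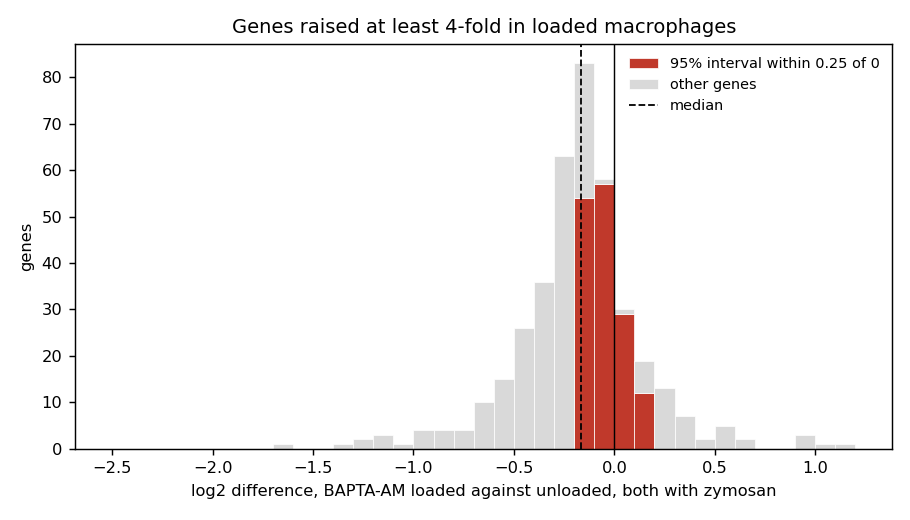
Number of genes (y axis) by the log2 difference between loaded and unloaded cells (x axis) for the 394 genes at least 4-fold higher in loaded than in untreated cells; red bars are the 152 genes whose 95% interval lies within 0.25 either way, and the dashed line is the median. Most genes lie just below 0, with the median at −0.165 and a tail of few genes below −1.

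Among receptors and proximal signalling genes, 22 of 29 rose and 6 fell in loaded cells, with a median of 0.32 that turned to −0.12 (11 higher and 15 lower) under total counts. *Clec4e*, which encodes the C-type lectin receptor Mincle, stood at 8.76, 9.88, 9.97 and 9.7 CPM in the untreated, 557, 576, 599 and 582 in the loaded and 618, 601, 569, 639 and 586 in the unloaded libraries. The loaded libraries sat far above the untreated ones and overlapped the unloaded ones, with a rise of 5.92 ± 0.05 (SE, n = 4) and a difference from unloaded of −0.05 (95% interval −0.12 to 0.01). *Tlr2*, the receptor itself, rose by 1.79 ± 0.04, to 448, 436, 396 and 424 CPM from 124, 128, 122 and 121, short of the 482 to 538 of unloaded cells (−0.28, −0.35 to −0.21). *Malt1*, the protease of the CARD9 complex, rose by 2.47 ± 0.05, from 15.7, 15.2, 15.1 and 14.1 CPM to 86.5, 81.5, 86 and 77.9, while all unloaded libraries were at 129 or more (−0.73, −0.81 to −0.64). *Card9* fell by 0.80 on the log2 scale, and so did *Vav1*, an exchange factor downstream of Syk, by 0.49. Of these 29 genes, 2 were called higher and 15 lower than in unloaded cells, with a median difference of −0.06.

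NF-kB subunits and inhibitors mostly rose. Of 23 tested, 22 rose and none fell, with a median of 1.14 against −0.02 over all genes, whereas total counts gave 17 higher and 4 lower with a median of 0.70. *Nfkbia*, the inhibitor IκBα that NF-kB itself induces, was at 90.8, 91.1, 88.3 and 82.9 CPM in the untreated, 704, 718, 727 and 709 in the loaded and 697, 679, 684, 698 and 693 in the unloaded libraries. Every loaded value lay above every unloaded one by a small margin, with a rise of 3.02 ± 0.03 and a difference of 0.05 (0.01 to 0.10) that was not called (edgeR adjusted p = 0.0618). *Nfkb1*, the p105/p50 subunit, rose by 2.42 ± 0.04 and differed from unloaded by 0.06 (0.01 to 0.11), and *Rel* rose by 2.40 ± 0.04 and was lower than unloaded by −0.15 (−0.22 to −0.08). *Tnfaip3*, the deubiquitinase A20, rose by 5.66 ± 0.05, from 23.2 to 28.3 CPM to 1286, 1332, 1221 and 1298, and stayed under all unloaded libraries (1454 to 1639, −0.28, −0.35 to −0.22). *Nfkbie*, the inhibitor IκBε, rose by 4.94 ± 0.09 with a gap of −0.61 (−0.70 to −0.51). Over the 23 genes, 5 were called higher and 13 lower than in unloaded cells (median −0.15).

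Immediate-early transcription factors were raised in 21 of 29 cases and lowered in 6, with a median of 1.72 (18 and 9 under total counts). *Fos*, a subunit of AP-1, was at 26.5, 28.6, 29.5 and 26 CPM in the untreated, 95.1, 92, 77.3 and 99 in the loaded and 98, 110, 108, 92.5 and 101 in the unloaded libraries, so that it rose by 1.72 ± 0.06 and overlapped the unloaded range (−0.16, −0.28 to −0.04). *Csrnp1*, a nuclear factor induced by growth signals, rose by 4.03 ± 0.05 with a gap of −0.39 (−0.47 to −0.30). *Myc*, the growth regulator, fell by 1.24 and the antiproliferative gene *Btg2* by 0.93.

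The orphan nuclear receptors and EGR factors, which calcium signals are known to induce, had unequal gaps. *Nr4a3* was at 0.796, 2.63, 2.1 and 1.16 CPM in the untreated, 28, 30, 31 and 28.2 in the loaded and 62.5, 57.3, 60.4, 47.9 and 49 in the unloaded libraries. It rose by 4.11 ± 0.14, and the loaded libraries were all below the unloaded ones (−0.92, −1.06 to −0.77). *Nr4a1* (Nur77) was at 2.51, 3.67, 2.86 and 3.2 CPM in the untreated, 3.61, 2.73, 2.49 and 3.22 in the loaded and 5.03, 6.39, 6.71, 3.92 and 6.53 in the unloaded libraries. Its loaded and untreated libraries overlapped (0.00 ± 0.16, edgeR adjusted p = 0.988), while the gap to unloaded cells was −0.91 (−1.24 to −0.58). *Egr1* rose by 2.20 ± 0.15 in loaded cells but spread widely, at 40.2, 23.9, 20.9 and 38.8 CPM against 33.4 to 46.8 in unloaded ones, and its difference (−0.32, −0.60 to −0.05) was not called, but was without loaded replicate 1 (−0.469), loaded replicate 4 (−0.453) or unloaded replicate 4 (−0.364), with no filter beyond 1 count (−0.323) and in the fit of all 13 WT libraries (−0.326). *Egr2* was at 1.05, 2.33, 2.02 and 1.65 CPM in the untreated and 3.03, 2.41, 1.87 and 2.58 in the loaded libraries, and its rise of 0.50 ± 0.21 lost the call without untreated replicate 1 (0.305) or 4 (0.471) or loaded replicate 1 (0.396) or 4 (0.488), in the fit of all 20 libraries (0.49), and under total counts (0.068). *Jun*, chosen after its values were seen, was at 84.9, 99.6, 93.7 and 91.4 CPM in the untreated, 72, 65.8, 64.6 and 68.9 in the loaded and 102 to 113 in the unloaded libraries. It thus fell by 0.44 in loaded cells, where the change in unloaded ones was 0.25, with a gap of −0.68 (−0.77 to −0.60). Of the 29 factors, 5 were called higher and 16 lower than in unloaded cells (median −0.23).

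Cytokine genes rose strongly but to lower levels than in unloaded cells. Of 33 cytokines and growth factors 27 could be tested, 23 rose and 3 fell, with a median of 3.71 (20 and 6 under total counts). Against unloaded cells 29 could be tested, and 23 were called lower and 1 higher, with a median of −0.44 where the median over all genes was 0.007. *Il33*, an alarmin of the IL-1 family, had 0, 0.0834, 0 and 0 CPM in the untreated, 42.4, 47.4, 39.8 and 44.4 in the loaded and 52.5, 39.4, 40.1, 43.3 and 39.5 in the unloaded libraries, at least 321-fold higher than untreated, taking 3 counts per untreated library as the limit. Loaded and unloaded libraries overlapped, with a difference of 0.03 (−0.11 to 0.17). *Tnf* was at 95, 105, 103 and 94.3 CPM in the untreated, 1523, 1540, 1553 and 1525 in the loaded and 1691, 1712, 1681, 1744 and 1719 in the unloaded libraries, a rise of 3.95 ± 0.04 with a small gap of −0.15 (−0.19 to −0.11). *Il10*, the anti-inflammatory cytokine, rose by 1.75 ± 0.07, to 27.5, 30.4, 32.7 and 32.2 CPM from 8.71 to 9.38. Loaded replicate 1 lay below the 29.7 to 34.9 of unloaded cells and the others within it (−0.05, −0.18 to 0.07).

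Other cytokines fell short by more. *Il6* was at 0.0419, 0.125, 0.336 and 0.331 CPM in the untreated, 142, 136, 146 and 158 in the loaded and 223, 214, 220, 229 and 224 in the unloaded libraries, a rise of 9.47 ± 0.12 with a gap of −0.60 (−0.68 to −0.53). *Tnfsf15*, the cytokine TL1A, rose by 9.65 ± 0.13 with a gap of −0.44 (−0.55 to −0.33). *Il12b*, the p40 chain of IL-12 and IL-23, reached 45.3, 33.8, 41.8 and 45.1 CPM, at least 306-fold over untreated, against 93.2 to 110 in unloaded libraries (−1.28, −1.42 to −1.14). *Ifnb1*, which encodes interferon-β, was at 0.0419 to 0.0841 CPM in untreated libraries and reached 50, 41.9, 34.1 and 52.8 in loaded ones, at least 330-fold higher, and 92.2, 110, 110, 91.8 and 101 in unloaded ones. All loaded libraries lay below all unloaded ones, with a difference of −1.16 (−1.33 to −0.99). *Pdgfb*, a growth factor, and *Il16*, a chemoattractant, fell by 3.53 and 2.38 on the log2 scale.

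*Il1a* and *Il1b* had the largest gaps of the cytokines named. *Il1a*, which encodes IL-1α, was at 0, 0.0417, 0.0841 and 0.165 CPM in the untreated, 4.92, 4.98, 4.74 and 4.56 in the loaded and 23.4, 25.5, 23.6, 21 and 22.7 in the unloaded libraries. Loaded cells were at least 35.4-fold above untreated cells and −2.27 (−2.44 to −2.10) from unloaded ones, with no overlap on either side. *Il1b*, which encodes pro-IL-1β, was at 1.51, 2, 1.3 and 1.16 CPM, then 35.9, 30.2, 32.9 and 38.9 when loaded and 102, 113, 108, 112 and 113 when unloaded. It rose by 4.51 ± 0.11 in loaded against 6.18 ± 0.08 in unloaded cells, a gap of −1.66 (−1.77 to −1.55). *Nlrp3*, the sensor of the inflammasome that matures IL-1β, rose by 1.16 ± 0.05, to 124 to 138 CPM from 54.3 to 65.3, under the 161 to 185 of unloaded cells (−0.38, −0.46 to −0.29).

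**Figure D2:**
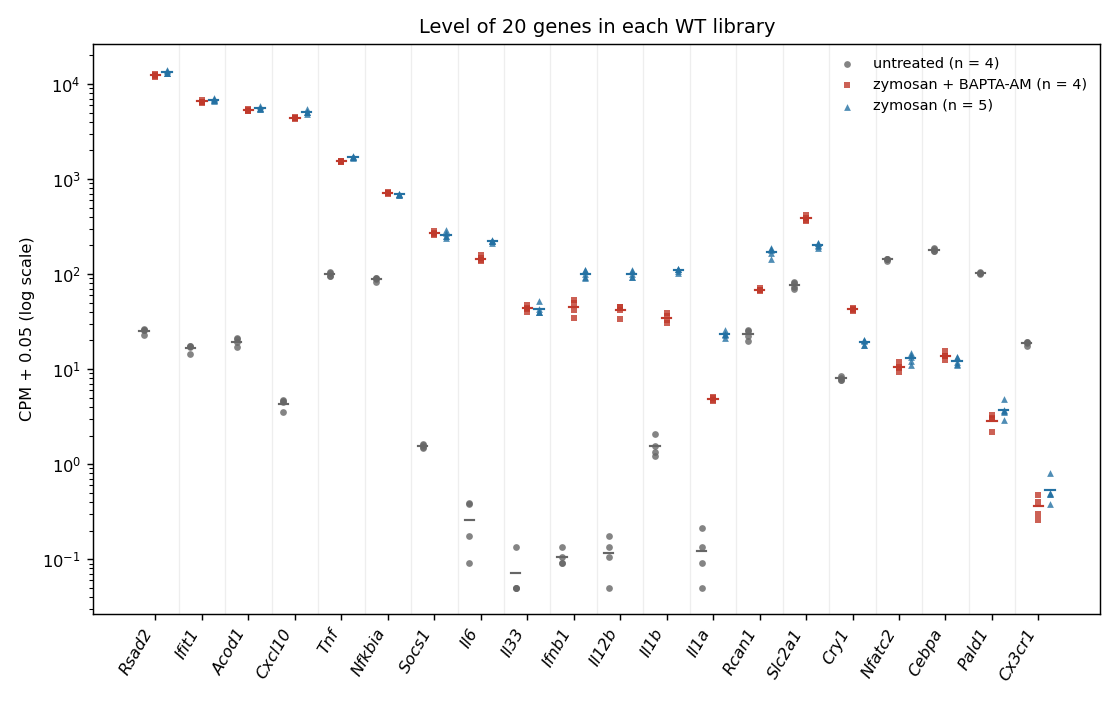
CPM of 20 genes (log axis, 0.05 added) in every untreated, loaded and unloaded library, 1 point per library with the group mean as a short line. *Rsad2*, *Il33* and *Nfkbia* reach about the same level with and without BAPTA-AM, *Il1a*, *Il1b* and *Rcan1* stop between the untreated and the unloaded level, and *Cry1* rises above the unloaded level.

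Chemokines followed the cytokines. Of 25 in the list 20 were tested, 15 rose and 2 fell (15 and 5 under total counts), with a median of 3.04, or 2.97 when genes near 0 in untreated cells were put at their lower bound, and 16 were called lower and none higher than in unloaded cells (median −0.34). *Cxcl10*, which draws T cells through CXCR3, was at 4.53, 3.5, 4.42 and 4.68 CPM in the untreated, 4258, 4341, 4521 and 4362 in the loaded and 5077, 5027, 4876, 5426 and 5082 in the unloaded libraries. It rose by 10.01 ± 0.05, and the gap of −0.22 (−0.27 to −0.17) was small beside that rise. *Ccl5* (RANTES) rose by 8.41 ± 0.07 to 406, 424, 442 and 412 CPM against 626 to 709 when unloaded (−0.64, −0.71 to −0.57). *Cxcl2*, which draws neutrophils, rose by 6.79 ± 0.11 to 121, 101, 100 and 124 CPM from 0.799 to 1.38, and all unloaded libraries were at 238 or more (−1.14, −1.24 to −1.03). *Ccl3* rose by 5.15 ± 0.05 (gap −0.30, −0.34 to −0.25) and *Ccl2*, which draws monocytes, by 2.39 ± 0.03 (−0.22, −0.27 to −0.16). *Cxcl14* fell by 2.42 and *Ccl6* by 0.47.

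Interferon-stimulated genes rose throughout in loaded cells. Of 41 tested, 41 rose and none fell, with a median of 4.24. Their median difference from unloaded cells was −0.17, with 32 called lower and 1 higher, so the shortfall was frequent and small. *Rsad2* (viperin), an antiviral enzyme, was at 22.8, 26.2, 25.9 and 25.7 CPM in the untreated, 11889, 12425, 12864 and 12195 in the loaded and 14073, 13158, 13069, 13863 and 13003 in the unloaded libraries. It rose by 8.95 ± 0.05 and the gap was −0.12 (−0.17 to −0.07), although the groups did not overlap. *Ifit1*, which binds viral RNA, was at 14.5, 17.5, 17.2 and 17.2 CPM in the untreated, 6363, 6476, 6802 and 6529 in the loaded and 7025, 6700, 6727, 7036 and 6779 in the unloaded libraries. Its rise was 8.63 ± 0.05, and loaded replicate 3 overlapped the unloaded libraries (−0.06, −0.10 to −0.02). Its neighbour *Ifit2* rose by 7.95 ± 0.05 with a difference of −0.05 (−0.11 to 0.00), and *Oasl1*, a regulator of Irf7 translation, by 8.09 ± 0.05 with −0.02 (−0.08 to 0.04).

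Gaps of other members varied. *Gbp5*, a guanylate-binding protein, was at 2.01, 2.08, 2.4 and 3.14 CPM in the untreated, 1491, 1458, 1585 and 1519 in the loaded and 1754, 1641, 1631, 1793 and 1615 in the unloaded libraries (9.33 ± 0.06, gap −0.15, −0.21 to −0.09). *Cmpk2*, a mitochondrial nucleotide kinase, rose by 8.38 ± 0.06 with a gap of −0.33 (−0.42 to −0.24). Of the 41 genes, 35 belonged to the 394 raised at least 4-fold, and 18 of these had an interval within 0.25. Beside this, the level of *Ifnb1* itself was lower by −1.16 in loaded cells, and a part of that in the small gaps of these genes was not tested. By promoter, 33 of the 42 listed genes matched a RefSeq window, and 19 (57.6%) held an ISRE match, 10 (30.3%) a kappaB match and 8 (24.2%) an AP-1 match.

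Promoter matches over the raised genes were described in the same way. Of the 394 genes raised at least 4-fold, 306 matched a window, of which 52 (17%) held an ISRE match, 101 (33%) a kappaB match and 41 (13.4%) an AP-1 match, where the shares over 8854 tested genes were 4.09, 30.2 and 6.14%. Of the genes whose interval lay within 0.25, 119 of 152 matched, and 17 (14.3%) held ISRE, 39 (32.8%) kappaB and 11 (9.24%) AP-1. Of the raised genes called lower than unloaded, 197 of 243 matched, and 43 (21.8%), 69 (35%) and 27 (13.7%) held these elements. Among those called lower by 0.5 or more, 38 of 45 matched, and the numbers were 7 (18.4%), 17 (44.7%) and 10 (26.3%).

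Calcium and NFAT response genes were listed for the Ca2+ branch described above, whose activity was not measured in these libraries. Of 21 tested, 13 rose and 4 fell in loaded cells, with a median of 0.45 (0.02 under total counts, with 9 higher and 10 lower), and against unloaded cells 11 were called lower and 2 higher (median −0.18). *Rcan1* was at 22.3, 25.7, 25.4 and 19.9 CPM in the untreated, 70.5, 68, 66.3 and 68.5 in the loaded and 184, 181, 186, 145 and 167 in the unloaded libraries. It still rose by 1.55 ± 0.06, where unloaded cells rose by 2.89 ± 0.07, and every loaded library was below every unloaded one (−1.33, −1.45 to −1.22). *Ptgs2*, the inducible cyclooxygenase COX-2, was at 0.463 to 0.88 CPM in the untreated, 135, 149, 167 and 149 in the loaded and 218, 212, 203, 222 and 205 in the unloaded libraries (7.78 ± 0.10, gap −0.50, −0.59 to −0.41). *Cd69*, an early activation antigen, rose by 7.41 ± 0.08 (gap −0.42, −0.56 to −0.29). The factors themselves fell in loaded cells, *Nfatc2* by 3.76, from 136 to 146 CPM to 11.9, 10.6, 9.16 and 10.3, and *Nfatc1* by 2.79, both somewhat lower than in unloaded cells (−0.31, −0.50 to −0.12, and −0.71, −0.91 to −0.52).

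Calcium channels, pumps and buffers moved less. Of 33 tested, 18 rose and 8 fell, with a median of 0.27 that turned to −0.16 (5 higher and 19 lower) under total counts, and 3 were called higher and 12 lower than in unloaded cells (median −0.04, or 0.02 under total counts). *Stim2*, the sensor of Ca2+ in the endoplasmic reticulum, rose by 1.68 ± 0.04, to 120, 120, 118 and 122 CPM from 35.3 to 39.2, and *Atp2b1*, a plasma membrane Ca2+ pump, by 1.11 ± 0.04. They differed from unloaded cells by −0.09 (−0.16 to −0.02) and −0.01 (−0.08 to 0.07). *P2rx7*, the ATP-gated channel, fell by 1.55 and *Orai1*, the store-operated channel, by 1.35, again close to unloaded cells (0.00, −0.12 to 0.12, and −0.13, −0.29 to 0.03). *Mcu*, the pore of the mitochondrial uniporter, stood at 8.21, 6.38, 7.53 and 6.72 CPM in the untreated and 9.37, 6.85, 7.29 and 7.64 in the loaded libraries, which overlapped (0.12 ± 0.11, not called; −0.317 under total counts).

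Feedback inhibitors rose in 17 of 24 cases and fell in 6 (median 1.52), with 13 called lower and 3 higher than in unloaded cells (median −0.21). *Socs1*, which blocks JAK kinases, rose from 1.42 to 1.6 CPM to 256, 271, 283 and 267, within the 241 to 291 of unloaded cells (7.48 ± 0.06, difference 0.05, −0.03 to 0.14). Its relative *Socs3* reached 734, 751, 749 and 738 CPM from 9.17 to 10.3, short of 937 to 995 in all unloaded libraries (6.27 ± 0.04, −0.38, −0.43 to −0.33). *Dusp1*, a phosphatase of MAP kinases, rose by 3.88 ± 0.06 (gap −0.40, −0.52 to −0.27). *Trib1*, a pseudokinase that marks C/EBP proteins for destruction, and *Rgs2*, which restrains G-protein signals, fell by 3.20 and 2.41.

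Enzymes that make mediators rose in 16 of 23 cases and fell in 5 (median 1.16, with 14 and 9 under total counts), and of 22 tested against unloaded cells 10 were called lower and 2 higher (median −0.09). *Acod1*, which makes itaconate, was at 16.8, 21.2, 20.6 and 19.1 CPM in the untreated, 5217, 5285, 5449 and 5220 in the loaded and 5641, 5479, 5406, 5868 and 5583 in the unloaded libraries. Its rise was 8.09 ± 0.05 and its gap −0.07 (−0.12 to −0.03). *Nos2*, the inducible nitric oxide synthase, reached 24.1, 27.3, 36.8 and 23.8 CPM, at least 206-fold over untreated, and overlapped the 26.6 to 41 of unloaded cells. Its difference of −0.28 (−0.51 to −0.06) was not called (edgeR adjusted p = 0.0519), but was without loaded replicate 3 (−0.437) or unloaded replicate 3 (−0.363). It was also called with no filter beyond 1 count (−0.287), with at least 10 counts in every library (−0.29) and in the fit of all 13 WT libraries (−0.289). *Slc7a2*, the transporter that brings in its substrate arginine, rose by 7.50 ± 0.09 to 91.3, 92.6, 92.6 and 97.3 CPM, just above the 76.7 to 91.1 of unloaded cells (0.14, 0.05 to 0.23). *Ptgs1* and *Tbxas1*, of the constitutive prostanoid route, fell by 1.28 and 0.66.

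Genes of co-stimulation and antigen presentation rose in 22 of 29 cases and fell in 3 (median 1.08), and 14 were called lower and none higher than in unloaded cells (median −0.21). *Cd274*, the checkpoint ligand PD-L1, went from 37.6 to 42.5 CPM to 1511, 1623, 1675 and 1599, below the 1812 to 2035 of unloaded cells (5.31 ± 0.04, −0.26, −0.32 to −0.20). *Icosl*, a ligand for T cells, fell by 1.18 and *H2-DMa*, a class II chaperone, by 0.44. In the list of inflammasome and cell death genes 22 of 26 rose and 3 fell (median 0.87, with 15 and 6 under total counts), with 15 called lower and 2 higher than unloaded (median −0.12). The death receptor *Fas* rose by 3.99 ± 0.06 to 119, 110, 118 and 118 CPM (difference −0.09, −0.16 to −0.02) and the proapoptotic *Bbc3* (PUMA) by 3.61 ± 0.06 (−0.23, −0.32 to −0.14), while *Nlrp1b* and *Casp8* fell by 1.26 and 0.40. *Ccrl2*, a chemokine receptor-like gene in none of the lists, rose by 7.90 ± 0.06 and differed by −0.05 (−0.10 to 0.01).

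**Figure D3:**
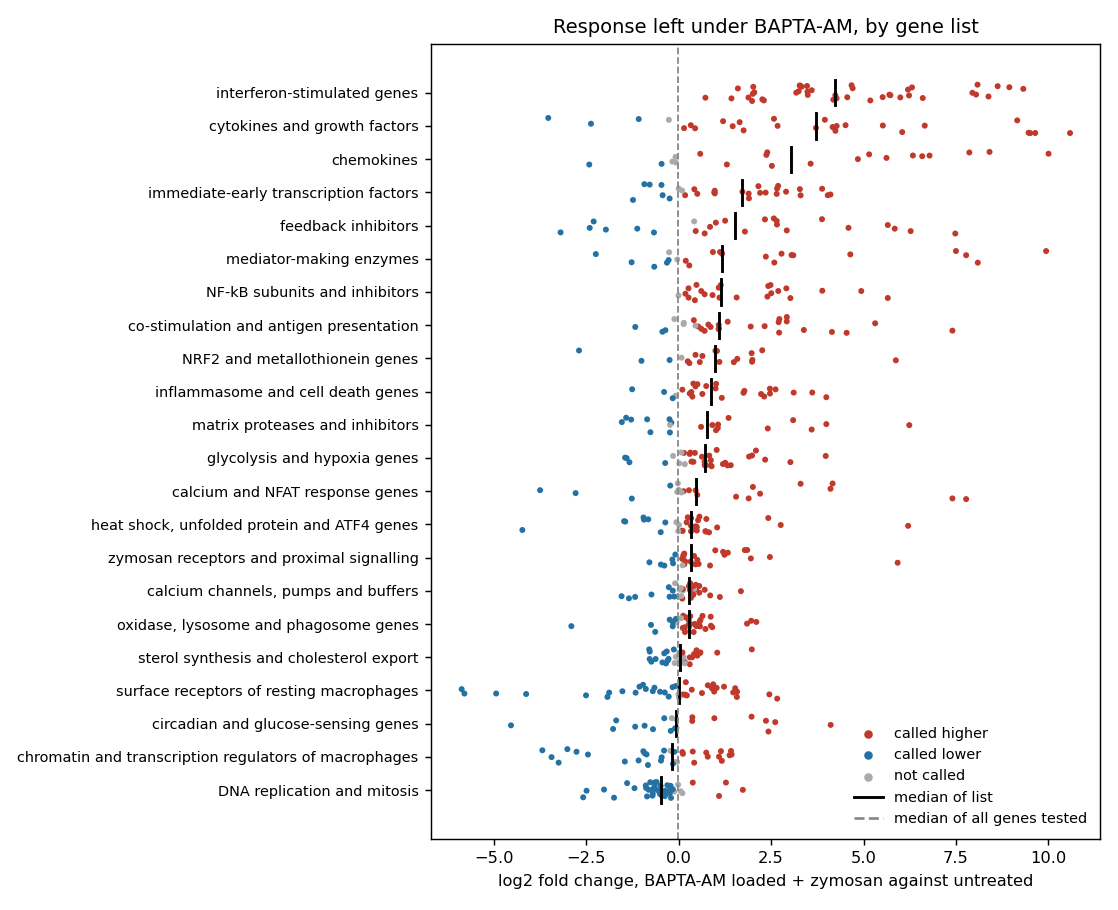
Log2 fold change of loaded against untreated cells (x axis) for every tested member of the 22 gene lists (y axis), 1 point per gene coloured by its call, with the list median as a bar. Interferon-stimulated genes all lie to the right of 0, at a median of 4.24, and DNA replication and mitosis genes mostly to the left, at −0.49.

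The 12 genes with the largest falls included receptors of resting macrophages. Among 39 surface receptors of the resting state 18 rose and 19 fell, with a median of −0.01 (0.01 with DESeq2 size factors, and −0.44 with 12 higher and 26 lower under total counts), and 24 of 35 tested were called lower and 4 higher than in unloaded cells (median −0.25). *Cx3cr1*, the fractalkine receptor, went from 18.8, 19.4, 19 and 17.5 CPM to 0.209, 0.428, 0.249 and 0.347, with 0.335 to 0.76 in unloaded libraries, a fall of 5.88 ± 0.16. *Cnr2*, the cannabinoid receptor of immune cells, fell by 5.80 ± 0.17, from 16, 19, 18.8 and 17.3 CPM to 0.471, 0.321, 0.187 and 0.248. Both were too low in the zymosan libraries to be tested against unloaded cells. *Csf1r*, the receptor of the growth factor CSF-1, fell by 0.70 ± 0.03, to 521, 535, 495 and 502 CPM from 812 to 864. *Cxcr4* and *Ptafr*, receptors for CXCL12 and platelet-activating factor, rose by 2.66 ± 0.12 and 2.45 ± 0.04.

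Further large falls were seen in both loaded and unloaded cells. *Pald1*, a phosphatase-like protein, went from 101, 103, 104 and 105 CPM to 2.93, 3.21, 2.12 and 2.98 and to 2.85 to 4.82 in unloaded libraries (−5.17 ± 0.07). *Nuak1*, an AMPK-related kinase, fell by 4.83, as did *Fam78a* (−4.55), *Tmem119* (−4.43), *Fut7*, a fucosyltransferase (−4.36), and *Fam110a* (−4.18), and for none of these 5 did the interval of the difference from unloaded cells leave out 0. *Nckap5l* fell by 4.95 and *Dmpk*, a kinase, by 4.29, with differences of −0.75 (−1.29 to −0.21), which was called but lost the call without any 1 of 5 libraries (−0.722 to −0.631), and −0.55 (−1.02 to −0.09), which was not called. *Ddit4* (REDD1), an inhibitor of mTORC1, went from 15.9, 14.6, 18.8 and 17.7 CPM to 0.68, 1.23, 0.748 and 0.843 in loaded but only to 2.91, 3.24, 3.6, 3.22 and 3.43 in unloaded libraries, so its fall was deeper with the chelator (−4.23 ± 0.15, difference −1.89, −2.29 to −1.49).

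Chromatin and transcription regulators of macrophages fell in 18 of 33 cases and rose in 12 (median −0.20, with 23 and 7 under total counts). Over all genes 39.7% fell and 37.7% rose, with a median of −0.02. Of the list, 9 were called lower and 3 higher than unloaded (median 0.00, or 0.05 under total counts), 36.4% in all, near the 32.2% over all genes. *Cebpa*, which specifies the myeloid lineage, fell by 3.69, from 173, 183, 189 and 176 CPM to 15.6, 12.5, 13.6 and 13.7, and *Id1*, an inhibitor of bHLH factors, by 3.44. *Kdm6b*, a histone demethylase, and *Stat3* rose by 1.43 ± 0.05 and 1.41 ± 0.04. DNA replication and mitosis genes fell in 32 of 40 cases and rose in 4 (median −0.49), with 10 called higher and 5 lower than unloaded (median 0.03). The latter calls were 37.5% of the list, again near the 32.2% over all genes. *Ccnd1* (cyclin D1) went from 411, 416, 435 and 398 CPM to 68.9, 68.1, 66.3 and 71.1 (−2.59 ± 0.04) and the replication licensing gene *Cdc6* fell by 2.50, whereas *Pcna*, the polymerase clamp, and *Cdt1* rose by 1.73 ± 0.03 and 1.28 ± 0.05.

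Some genes went further with the chelator than without it. Glycolysis and hypoxia genes rose in 26 of 34 cases and fell in 4 (median 0.70), or in 19 and 11 cases (median 0.27) under total counts, and this list was higher than unloaded in 19 cases and lower in 7, with a median difference of 0.14. *Slc2a1*, the glucose transporter GLUT1, was at 73, 82.1, 80.7 and 69.2 CPM in the untreated, 371, 414, 364 and 388 in the loaded and 213, 204, 210, 186 and 198 in the unloaded libraries, a rise of 2.34 ± 0.05 that exceeded the unloaded one by 0.93 (0.85 to 1.01). *Ak4*, an adenylate kinase of mitochondria that hypoxia induces, reached 31.3, 35.4, 41 and 38.6 CPM from 2.26 to 3.87, over 16.9 to 21 when unloaded (0.93, 0.78 to 1.09). The list was not uniform. *Hk2* (hexokinase 2) rose by 0.70 ± 0.03, to 303, 305, 325 and 317 CPM from 191 to 194, below all unloaded libraries (394 to 476, −0.46, −0.54 to −0.38), and *Slc2a6*, a lysosomal hexose transporter, by 3.98 ± 0.05 with a gap of −0.31 (−0.37 to −0.25). *Slc16a1*, a lactate transporter, rose by 3.02 ± 0.05, and *Pfkfb4* fell by 1.34.

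Clock and glucose-sensing genes were also more often higher than lower beside unloaded cells, but as a list did not go further. Their median against untreated cells was −0.58 in unloaded cells. Of 20 tested, 8 rose and 9 fell in loaded cells (median −0.09, with 6 and 12 under total counts), but 11 were called higher and 1 lower than in unloaded cells, with a median difference of 0.38. *Cry1*, a repressor of the clock, was at 7.67, 7.63, 8.41 and 7.99 CPM in the untreated, 41, 44.1, 41.9 and 42.7 in the loaded and 19.8, 20, 17.8, 17.8 and 20.1 in the unloaded libraries. The 3 groups did not overlap, with a rise of 2.43 ± 0.06 and a further 1.16 (1.05 to 1.27) over unloaded cells. *Per2*, another clock repressor and chosen after its values were seen, fell to 7.64, 7.49, 6.3 and 7.29 CPM from 9.97 to 12.4 in loaded cells and to 1.99 to 3.2 in unloaded ones (difference 1.54, 1.27 to 1.82). *Arrdc4*, an arrestin induced by glucose through MondoA, rose from 6.94 to 8.05 CPM to 128, 142, 117 and 127, against 58.5 to 69.9 when unloaded (4.11 ± 0.06, difference 1.00, 0.89 to 1.11). *Rora*, a nuclear receptor of the clock, rose by 2.61 ± 0.11, while *Arrdc3*, a relative of *Arrdc4*, fell by 1.78 and *Usp2* by 4.54, from 20.2 to 20.8 CPM to 0.471, 1.18, 1.31 and 0.595.

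Of the other genes furthest above unloaded cells by the same conditions, *Plagl1*, a zinc finger factor, reached 20.7, 23.1, 26.8 and 20.8 CPM, at least 169-fold over untreated, where unloaded libraries had 11.4 to 12.4 (0.94, 0.78 to 1.10). *Rfx1* was at 21.2, 23.5, 24.9 and 24.4 CPM in the untreated, 25.8, 26, 25.2 and 21 in the loaded and 11.2, 12.1, 12.8, 11.9 and 12 in the unloaded libraries, so that loaded cells stayed at the untreated level (0.06 ± 0.07, not called; −0.37 under total counts) while unloaded cells dropped by 0.96. *Ston2* and *Mbd5* instead rose above the untreated level in loaded cells, by 0.42 ± 0.09 and 0.48 ± 0.08, a rise that was not called under total counts (−0.01 and 0.049). In unloaded cells their changes were −0.60 and −0.51, and the differences were 1.02 (0.80 to 1.25) and 1.00 (0.83 to 1.17).

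At the other end, the 8 genes with the largest shortfall against unloaded cells, among those of 10 CPM or more whose libraries did not overlap, were *Il1a*, *Il1b*, *Timp1*, *Hspa1b*, *Rcan1*, *Hspa1a*, *Il12b* and *Mmp13*. *Timp1*, an inhibitor of metalloproteinases, was at 0.0841 to 0.459 CPM in the untreated, 3.45, 4.28, 5.3 and 3.72 in the loaded and 12 to 15.6 in the unloaded libraries (3.99 ± 0.28, gap −1.66, −1.90 to −1.42). *Mmp13*, a collagenase, rose from 8.47 to 9.8 CPM to 81.6, 75.8, 78.2 and 74.5, against 173 to 186 when unloaded (3.09 ± 0.06, gap −1.21, −1.29 to −1.14). Their list, matrix proteases and inhibitors, rose in 11 of 20 cases and fell in 8 (median 0.75), and of 21 tested against unloaded cells 12 were called lower and 1 higher (median −0.30). *Serpinb2*, an inhibitor of plasminogen activators, rose by 6.24 ± 0.19 with a gap of −1.18 (−1.32 to −1.04), and *Plau*, the activator itself, and *Mmp19* fell by 1.54 and 1.43. *Hspa1b* and *Hspa1a*, the inducible HSP70 pair, are near-identical copies whose reads can be split between them, and reached 14.3 to 18.5 and 7.28 to 9.52 CPM in loaded libraries against 40.2 to 44.5 and 19.8 to 21.5 in unloaded ones.

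**Figure D4:**
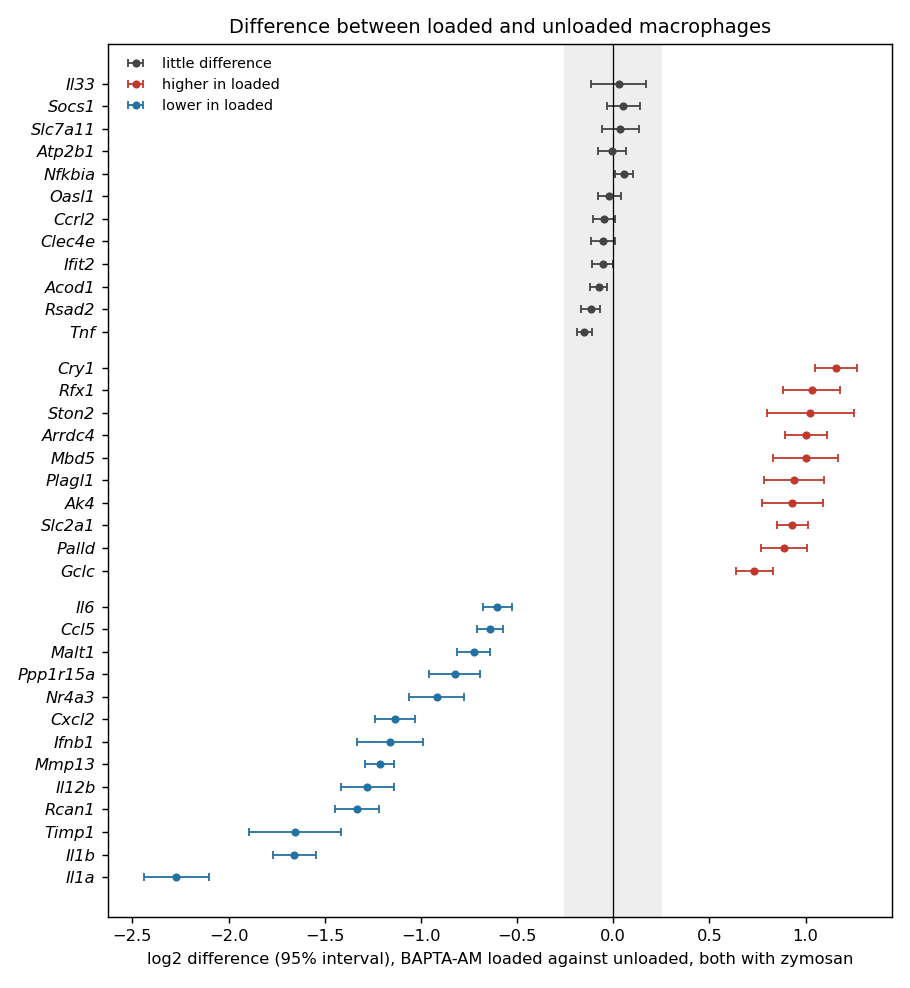
Log2 difference between loaded and unloaded cells (x axis) with its 95% interval for 35 named genes (y axis); the shaded band spans 0.25 either way. The first 12 genes, from *Il33* to *Tnf*, lie inside the band, *Il1a* lies lowest at −2.27 and *Cry1* highest at 1.16.

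Redox and metal genes of the NRF2 and metallothionein list rose in 15 of 19 cases and fell in 3 (median 0.99), with 8 called higher and 6 lower than unloaded (median 0.04). *Slc7a11*, which imports cystine, went from 2.29 to 2.98 CPM to 140, 162, 165 and 144, within the 138 to 161 of unloaded cells apart from replicates 2 and 3 (5.87 ± 0.08, difference 0.04, −0.06 to 0.13). *Slc30a1*, a zinc exporter, rose by 2.26 ± 0.04. *Osgin1* fell by 2.70 and *Gclm*, a subunit of the enzyme that starts glutathione synthesis, by 1.01, less than in unloaded cells (0.35, 0.26 to 0.44), and the other subunit, *Gclc*, rose from 41.7 to 43.8 CPM to 62.1, 65.9, 64.5 and 61.6 in loaded cells (0.57 ± 0.04, against −0.16 in unloaded cells, difference 0.73, 0.64 to 0.83).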

How the data were processed

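RNA was sequenced from WT BMDMs, 4 untreated, 5 given zymosan and 4 given zymosan after BAPTA-AM, grouped by their labels. The authors checked reads with FastQC and MultiQC, trimmed adaptors with cutadapt, aligned with STAR to mm10 and counted reads per gene with HTSeq, and the deposited values are these raw counts, not normalized, in 1 table of 21963 gene entries. Of its symbols 25 were repeated entries and 24 had become dates. The authors tested with DESeq2.

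From these counts, genes were filtered with filterByExpr, scaled by TMM and tested with edgeR 4.0.16 (R 4.3.3, limma 3.58.1) on the libraries of each comparison alone, with Benjamini-Hochberg adjustment over all genes tested and a threshold of 0.05. The 95% intervals come from the same fits. On simulated data of 11099 genes for loaded against untreated cells, 200 of 200 genes changed by 1 log2 were recovered, with 8 false calls. The simulation gave every gene the same dispersion, shifted these genes equally up and down and left the others unchanged. It met the TMM assumption by design, so it cannot vouch for calls in data where 77.4% of genes were called. A library's floor was 3 counts, which covers counting error only, as do depths of 14.4 to 22.4 M counts.

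The comparison, the 22 gene lists and 8 marker lists were chosen with earlier results of these data known. Genes were named by rule. These were the 12 largest rises and falls in loaded against untreated cells and the 8 largest differences each way from unloaded cells (called, no overlap, 10 CPM or more), the 2 largest rises and falls of each list, 10 genes raised at least 4-fold with an interval within 0.25, 6 genes each way changed in loaded but not in that direction in unloaded cells, and anchor genes. *Jun* and *Per2* were added after their values were seen. Samples were not treated as paired, since the labels give no pairing. Deviations of same-numbered libraries correlated at −0.034 to 0.076 (loaded and untreated), −0.144 to 0.099 (loaded and unloaded) and −0.045 to 0.072 (unloaded and untreated). Libraries so few and so similar cannot show whether groups shared an animal or culture. Alternatives were DESeq2 1.42.0 (its size factors and its Wald test), total counts, other filters, fits with all 13 WT or all 20 libraries, a replicate block, a 2-fold minimum and leaving out each library. Those for the named genes in the direct test were added after seeing the data. Promoter sequences are from RefSeq, GRCm38.p6.

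Some genes that the naming rule picked are not reported here.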

Additional observations from a re-analysis of the deposited data

Results flagged for a closer look

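For genes named in the text, 420 sets of libraries (a gene in a group) were checked for 1 library far from the others, which chance gives in about 1 in 20 sets, and 14 were found. They were 8 in untreated, 3 in unloaded and 3 in loaded cells, and no library held more than 3. In loaded cells *Dusp1* stood at 226.5 CPM in replicate 3 against 265.1 to 268.4 in the others, *Nfatc1* at 6.584 in replicate 2 against 7.687 to 7.848, and *Rfx1* at 20.98 in replicate 4 against 25.18 to 25.96. In unloaded cells *Cx3cr1* was at 0.7603 CPM in replicate 2 against 0.3352 to 0.4505, *Ints6* at 26.65 in replicate 1 against 28.71 to 29.24, and *Jun* at 101.9 in replicate 4 against 110.6 to 113.1. In untreated cells replicate 1 was lowest for *Ifit1* (14.5 CPM, the others 17.2 to 17.47), *Rsad2* (22.76, the others 25.68 to 26.23) and *Per2* (9.974, the others 12.34 to 12.4), and replicate 2 for *Rora* (2.043, the others 2.64 to 2.7). Replicate 4 was highest for *Ccl6* (100.1, the others 87.73 to 89.11) and lowest for *Rab20* (12.89, the others 14.97 to 15.05). *Il33* in replicate 2 (0.08339) and *Nos2* in replicate 3 (0.0841) were above 0 where the other untreated libraries had no count.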

How the results depend on the processing

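Under total counts the numbers of genes higher and lower became 1999 and 7961 in loaded and 1976 and 8354 in unloaded cells against untreated, and 2868 and 1217 in loaded against unloaded cells, so that higher calls were 20.1% of calls rather than 48.6%, 19.1% rather than 47.6%, and 70.2% rather than 49.3%. A 2-fold minimum gave 1230 and 1407, 1368 and 1512, and 21 and 65. The fit of all 20 libraries gave 753 higher and 741 lower for loaded against unloaded cells, where its own comparison gave 1741 and 1788. An interval of 0.5 in place of 0.25 took 305 genes rather than 152. Against untreated cells *Mcu* (−0.317), *Rfx1* (−0.37) and *Ston2* (−0.01) changed sign under total counts. With a replicate block the counts were 4208 and 4445 (loaded), 4305 and 4536 (unloaded) and 1415 and 1583 (direct). Leaving out each library gave 4104 to 4186 higher and 4335 to 4423 lower in loaded cells, 4182 to 4289 and 4504 to 4658 in unloaded cells, 1434 to 1703 and 1619 to 1767 in the direct test, and 140 to 165 genes with an interval within 0.25. Over the named genes and all alternatives, 2212 values against untreated cells kept direction and call, 8 lost the call, 1 gained it and 3 changed sign, and 2189 values of the direct test kept both, 110 lost the call, 43 gained it and 0 changed sign. The small direct differences of *Fos*, *Ifit1*, *Nfkb1*, *Stim2* and *Slc7a2* lost their call without 1 or another library, *Slc7a2* without loaded replicate 4 (0.115). In the fit of all 20 libraries larger gaps also lost their call, among them *Ccl5* (−0.645), *Nfkbie* (−0.612), *Ptgs2* (−0.50), *Cd69* (−0.429), *Dusp1* (−0.401) and *Tnf* (−0.155), at edgeR adjusted p of 0.0577 to 0.549. Low counts limit *Cx3cr1*, *Cnr2* and *Egr2*. The cause of each change was not tested.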

Other observations

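Genes of 3 further lists were followed in loaded cells. In the sterol list 12 of 30 genes rose and 12 fell, with a median of 0.02 that turned to −0.41 (4 higher and 21 lower) under total counts. These calls, 80% of the list, were near the 77.4% over all genes, of which 37.7% rose and 39.7% fell. Against unloaded cells 12 were called higher and 7 lower (median 0.03), 63.3% in all, where 32.2% of all genes were called. *Insig1*, which holds the sterol sensor in the endoplasmic reticulum, rose by 1.98 ± 0.04. *Abca1*, the cholesterol exporter, fell by 0.80 and *Mylip*, a ubiquitin ligase, by 0.79. In the oxidase, lysosome and phagosome list 25 of 35 rose and 7 fell (median 0.27, or −0.17 with 12 and 20 under total counts), and of 36 tested against unloaded cells 16 were called lower and 4 higher (median −0.06). *Cybb*, the catalytic subunit of the phagocyte oxidase, rose from 436 to 449 CPM to 1654, 1712, 1723 and 1748 (1.96 ± 0.03) and *Rab20*, a phagosomal GTPase, by 2.10 ± 0.06. *Tfeb*, a regulator of lysosomal genes, fell by 2.91, from 35.1 to 40.1 CPM to 5.18, 5.57, 4.61 and 4.26.

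In the heat shock, unfolded protein and ATF4 list 21 of 32 rose and 8 fell (median 0.33, or −0.10 with 10 and 18 under total counts), with 12 called lower and 9 higher than unloaded (median −0.002). *Ppp1r15a* (GADD34), which restores translation after stress, was at 5.78, 6.71, 6.6 and 7.05 CPM in the untreated, 530, 495, 396 and 495 in the loaded and 832, 924, 918, 722 and 861 in the unloaded libraries, a rise of 6.21 ± 0.08 with a gap of −0.82 (−0.96 to −0.69). *Sesn2*, a sestrin, fell by 1.45, to 19.5, 19.9, 14.8 and 16.2 CPM from 45.3 to 51.1, below the 24.7 to 31.7 of unloaded cells.

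Several genes changed against both other groups in loaded cells while unloaded cells did not change in that direction. There were 260 such genes higher and 154 lower, counted from calls that share libraries. Of 11171 genes tested against untreated cells, 4206 were called higher and 4440 lower. Of 10973 tested against unloaded cells, 1741 were called higher and 1788 lower. Besides *Gclc*, the leading ones of 10 CPM or more that were higher were *Ankrd12* (0.76 ± 0.05 against untreated, 0.65 against unloaded), *Esyt2*, a tether between membranes (0.67 ± 0.04 and 0.62), *Palld*, an actin scaffold (0.66 ± 0.06 and 0.89), *Slc25a33*, a mitochondrial pyrimidine carrier (0.62 ± 0.08 and 0.47), and *Map3k20*, the kinase ZAK (0.59 ± 0.06 and 0.49). Among those lower were *Hist1h1c*, a linker histone (−0.67 ± 0.04 and −1.09), *Ints6*, of the Integrator complex (−0.64 ± 0.06 and −0.74), *Eng*, a coreceptor of TGF-β (−0.61 ± 0.07 and −0.53), *Csf2rb2* (−0.51 ± 0.06 and −0.46) and *Atp8b2*, a lipid flippase (−0.46 ± 0.09 and −0.28). *Csf2rb2* is a close copy of Csf2rb, so its counts are uncertain. In the fit of all 20 libraries its change against untreated cells of −0.512 was not called (edgeR adjusted p = 0.152). The differences from unloaded cells of *Csf2rb2* (−0.468), *Eng* (−0.532) and *Atp8b2* (−0.288) were not called in that fit either (edgeR adjusted p of 0.358, 0.0603 and 0.0682).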
